A study of Mus musculus with 2 samples.

Results

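The matrix proteases Mmp2, Mmp3, Mmp13, Mmp14, Adamts1 and Adamts5 and the tissue inhibitors of metalloproteinases Timp1, Timp2 and Timp3 were described in the stromal cells of a single-cell RNA-Seq library of mouse bone. The 9 genes were chosen by name, and all 9 were found among the 32285 genes of the deposited table. Their levels were compared between stromal and leukocyte barcodes, and between ovariectomized and control mice within the stromal barcodes.

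The study asked how the loss of estrogen after ovary removal alters osteal macrophages, the macrophages that reside on bone. BALB/c female mice, 10 weeks old, were ovariectomized (OVX) or sham operated. The femurs and vertebrae of 20 mice per condition were pooled 4 weeks after surgery. The periosteum was removed, and for femurs the epiphysis was cut off and the marrow cavity washed out. Bone was digested with trypsin and then overnight with collagenase D, and cells were sorted on CD11b, F4/80 and CD68. Cells of each condition carried their own hashtag antibody, and both conditions were run as 1 droplet library, so that each condition is 1 pool and no difference between them can be set against the spread between animals.

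The library held 2349 cell barcodes with 17681092 UMIs on genes (a UMI marks 1 captured RNA molecule), from 500 to 141565 UMIs per barcode. The labels gave 1037 OVX and 1084 sham cells as loaded. From the hashtag counts, 1059 barcodes were assigned to OVX, 981 to sham, 78 to both and 231 to neither. Clustering without the 9 genes set apart 210 stromal barcodes (5473824 UMIs, median 19996.5 per barcode) from 2139 leukocyte barcodes (12207268 UMIs, median 3993). Levels are given as CPM, the UMIs of a gene or list per 1000000 gene UMIs of the barcodes named. The stromal markers summed to 19395 CPM in the stromal barcodes and to 112 in the leukocytes, and the leukocyte markers to 1044 and 15460. Although the labels name the cells macrophages, 10 macrophage markers summed to 131 CPM in the leukocytes, against 267705 for 11 neutrophil markers. Adgre1, which encodes F4/80, stood there at 7.54 CPM. These are RNA levels, whereas the sort was on protein. Cartilage genes were prominent in the stromal barcodes, with Sox9 at 1075, Comp at 972, Col2a1 at 896 and Acan at 725 CPM, and the joint lubricant gene Prg4 reached 25948. Of 10 osteoblast or osteocyte markers, Bglap, Bglap2, Phex and Sost had no UMI there, and the list summed to 183 CPM, of which Col11a1, also a cartilage gene, gave 158.

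Matrix metalloproteinases and ADAMTS proteases cut the proteins of the extracellular matrix, and TIMPs block them by occupying the catalytic site. Mmp3 (stromelysin-1) cuts proteoglycans and activates other proforms, Mmp13 (collagenase-3) is the main collagenase of rodent cartilage and bone, and Mmp2 is a gelatinase. Mmp14 is a membrane-anchored collagenase that activates proMmp2 with the help of Timp2. Adamts1 and Adamts5 cut the proteoglycans versican and aggrecan, and Adamts5 is the best known aggrecanase of mouse cartilage. Timp3 is bound to the matrix and is the TIMP that also inhibits ADAMTS proteases.

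All positions are in the mouse build GRCm38 (mm10) with GENCODE annotation, and all 9 genes are protein coding. Mmp13 (chromosome 9, 7272514 to 7283331) and Mmp3 (chromosome 9, 7445822 to 7455975) lie on the plus strand in a run of 10 Mmp genes that spans 427072 bases. Adamts1 (chromosome 16, 85793827 to 85803113) and Adamts5 (chromosome 16, 85856173 to 85901828) lie on the minus strand, 53059 bases apart, with 0 protein-coding genes between them. Mmp2 (chromosome 8, 92827291 to 92853420) and Mmp14 (chromosome 14, 54431612 to 54445364) lie on the plus strand. Timp1 (chromosome X, 20870166 to 20874735, plus strand) is nested in Syn1 and Timp3 (chromosome 10, 86300372 to 86349506, plus strand) in Syn3, each on the opposite strand. Timp2 (chromosome 11, 118301069 to 118355740) lies on the minus strand and overlaps Cep295nl on the same strand.

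RefSeq promoters (GRCm38.p6) were matched for 7 of the 9 genes, not Mmp2 and Adamts5, and the 250 bases before each annotated start were searched on both strands for TGANTCA (a letter pattern of AP-1 sites, which reads the same on both strands), TATAAA (the letters of a core promoter box) and ACCACA (a Runx pattern). The 100 bases before the start are shown for Mmp3 and Mmp13, the proteases with the highest level and the largest OVX to sham ratio, and for Adamts1, the third gene with a TATAAA match. Capitals mark TGANTCA and TATAAA matches, and each strand is the gene's own, 5′ to 3′, for Mmp3 at chr9:7445722-7445821 (plus), Mmp13 at chr9:7272414-7272513 (plus) and Adamts1 at chr16:85803114-85803213 (minus).
Mmp3: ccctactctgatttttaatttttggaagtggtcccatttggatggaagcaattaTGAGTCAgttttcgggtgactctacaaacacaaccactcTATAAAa
Mmp13: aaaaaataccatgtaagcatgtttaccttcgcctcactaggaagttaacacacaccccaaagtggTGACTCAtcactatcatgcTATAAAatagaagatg
Adamts1: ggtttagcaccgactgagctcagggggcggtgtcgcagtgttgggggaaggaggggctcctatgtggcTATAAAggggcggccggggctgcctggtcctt
Mmp3 held TGANTCA at -46 and TATAAA at -7, and Mmp13 held them at -35 and -16, counted back from the annotated start. Of 32851 promoters in the table, 6.75% held TGANTCA, 12.4% held TATAAA and 1.21% held both. ACCACA was found in Mmp13 (-118) and Mmp14 (-114), and in 14.0% of all promoters. Timp1, Timp2 and Timp3 held none of these letters in this window.

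Mmp3 was the second most abundant transcript of the stromal barcodes after Malat1. It had 162316 UMIs there, or 29653 CPM (95% Poisson interval 29509 to 29798), and 2.97% of all stromal UMIs. Intervals here and below cover counting error only. Timp1, at 2036 CPM (1998 to 2074), ranked 56th, Timp3, at 724 (701 to 747), ranked 189th, and Mmp13, at 341 (326 to 357), ranked 360th of the 16349 genes with a stromal UMI. Adamts5 stood at 226 (213 to 239). Timp2 at 88.6 (80.9 to 96.9), Adamts1 at 75.8 (68.7 to 83.5) and Mmp14 at 72.7 (65.7 to 80.2) followed, and the interval of Adamts1 overlapped those of both others. Mmp2 came last, at 6.03 (4.15 to 8.47) from 33 UMIs. In this 3′ assay a molecule gives 1 UMI whatever its length, so that these levels were not divided by transcript length.

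**Figure D1:**
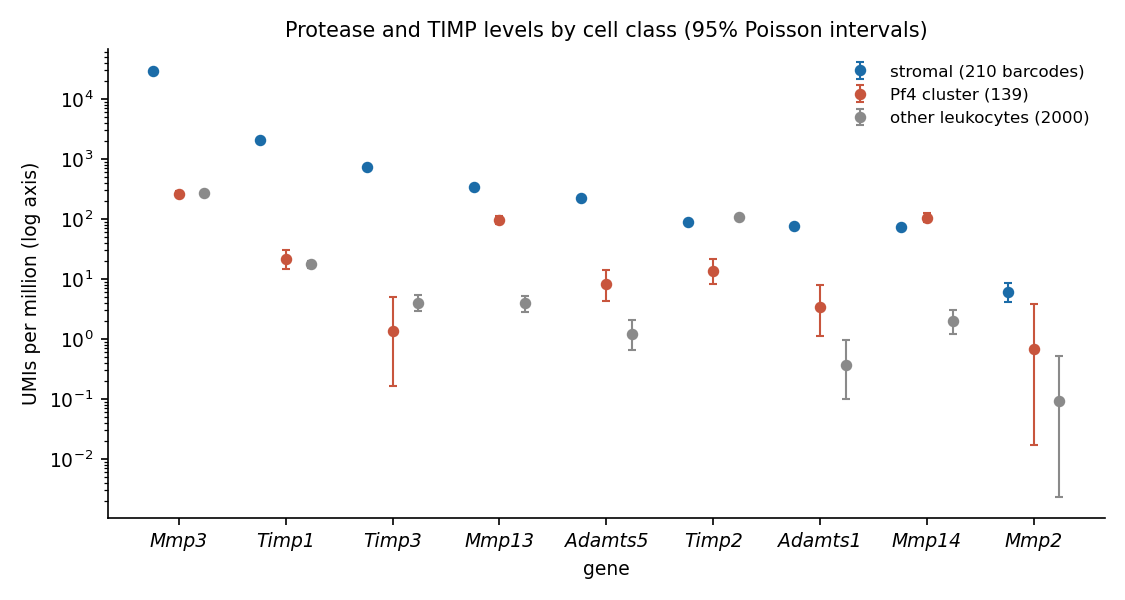
Levels of the 9 genes in CPM on a log axis, in 210 stromal barcodes, 139 barcodes of the Pf4 cluster and 2000 other leukocyte barcodes, with 95% Poisson intervals that cover counting error only. Mmp3 stands at 29653 in the stromal barcodes against 263 and 268 in the other sets, whereas Mmp14 stands at 72.7 in the stromal barcodes and 105 in the Pf4 cluster, and Timp2 at 88.6 and 13.7.

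Most of the 9 genes were far higher in stromal than in leukocyte barcodes. Of the 8 genes with a mean of at least 10 CPM over both classes, 7 were at least 2-fold higher in the stromal barcodes (Mmp3, Mmp13, Mmp14, Timp1, Timp3, Adamts1 and Adamts5), where 46.5% of the 7428 genes that met the same minimum were. The median log2 ratio was 6.73 over the 8 genes and 0.83 over all 7428. Timp2 was the gene that was not higher, and Mmp2 was below the minimum. Timp3, Adamts1 and Adamts5, at 3.69, 0.737 and 2.05 CPM in leukocytes, met the minimum only through the stromal barcodes. The 9 genes were also chosen with earlier results of these data known, so that the count is a description and not a test. With 1 library, no test over samples was possible.

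Timp3 was 196-fold higher (exact 95% interval 146 to 270), from 3962 stromal and 45 leukocyte UMIs. Timp1 was 113-fold higher (98.9 to 130), Mmp3 111-fold (107 to 115), Adamts5 110-fold (74.3 to 171) and Adamts1 103-fold (53.6 to 226). The order among these 5 genes was not stable, since over the other settings tried the ratio ran from 116 to 205 for Timp3, 76.9 to 119 for Timp1, 84.4 to 124 for Mmp3, 41.6 to 224 for Adamts5 and 40.0 to 268 for Adamts1. Adamts5 and Adamts1 had 25 and 9 leukocyte UMIs, and 1 barcode held 9 of the 25. Mmp13 was 22.8-fold higher (19.6 to 26.7) and Mmp14 5.07-fold (4.24 to 6.09), and Timp2 had a ratio of 0.901 (0.809 to 1.00).

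Shares of barcodes with a UMI followed depth as well as level. Mmp3 had a UMI in 206 of 210 stromal barcodes (98.1%, exact binomial interval 95.2 to 99.5) and in 1497 of 2139 leukocyte barcodes (70.0%, 68.0 to 71.9). After thinning to 1000 UMIs, which left out 12 stromal and 159 leukocyte barcodes, the shares were 94.4% and 27.1%. Timp1 had a UMI in 88.6% of stromal and 9.40% of leukocyte barcodes, and Timp3 in 76.7% and 2.10%. Mmp13 stood apart from the other well expressed genes, with a UMI in 33 of 210 stromal barcodes (15.7%, 11.1 to 21.4).

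The leukocyte UMIs of a stromal gene can be free RNA, so that the leukocyte level was expressed as a percentage of the stromal level and set beside 9 stromal genes with at least 500 stromal UMIs (Col5a1, Col6a1, Col6a2, Pdgfra, Prrx1, Dcn, Bgn, Sparc and Prg4). These ranged from 0.218% to 1.67% with a median of 0.640%. Mmp3 (0.902%, 0.871 to 0.934), Timp1 (0.885%), Timp3 (0.509%), Adamts1 (0.972%) and Adamts5 (0.908%) lay inside that range, whose top was set by Col5a1 (22 leukocyte UMIs). Mmp3 lay above the most abundant of the 9, Dcn (0.553%, 0.521 to 0.587) and Prg4 (0.359%, 0.338 to 0.380). Mmp3 stood at 0.887% (0.800 to 0.980) in the Pf4 cluster and 0.904% (0.871 to 0.938) in the other leukocytes, with overlapping intervals. In the Pf4 cluster, where the 9 stromal genes ran from 0% to 1.29%, Adamts1 (4.52%, 1.46 to 10.6, from 5 UMIs) and Adamts5 (3.64%, 1.88 to 6.39, from 12 UMIs, 9 of them in 1 barcode) lay higher. The source of the Mmp3 UMIs in leukocyte barcodes was not tested. Mmp13 (4.39%), Mmp14 (19.7%) and Timp2 (111%) lay outside the range. So did Mmp2 (2.72%, 0.316 to 10.6), but from 2 leukocyte UMIs and with an interval that reached into the range.

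Among the leukocytes, the Mmp13 and Mmp14 UMIs lay mostly in 1 cluster, and their source was not tested. That cluster of 139 barcodes was led by Pf4, Ppbp and H2-Aa and had the highest sum of macrophage markers, 520 CPM, with Cd68 at 135, Csf1r at 65.7 and Adgre1 at 46.6, while C1qc was at 0. In the same cluster the neutrophil markers summed to 96854 CPM and the erythroid or platelet markers, which include Pf4 and Ppbp, to 2808. Mmp14 stood there at 105 CPM (89.5 to 123) with a UMI in 49 of 139 barcodes, against 1.95 in the other leukocytes. Mmp13 stood at 96.6 (81.3 to 114) against 3.91. Its 141 UMIs came from 17 of 139 barcodes, and the 2 highest held 48 and 38. Mmp12, the macrophage elastase, which lies next to Mmp13 on chromosome 9, reached 395 CPM in the same cluster and 161 in the stromal barcodes. Timp2 had the opposite distribution, with 110 CPM (104 to 116) in the leukocytes outside the Pf4 cluster and 13.7 (8.37 to 21.2) inside it.

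Within the stroma, barcodes were clustered without the 9 genes into 3 groups, a number that was set beforehand and not found. Group 1 (92 barcodes) was led by Ctla2a, Fabp4 and Lum (the 9 genes left aside), group 2 (66 barcodes) by Saa1, Saa2 and 1520401A03Rik, with the cartilage genes Chad at 1561 and Cnmd at 448 CPM, and group 3 (52 barcodes) by Cxcl5, Ecm1 and Ccl2. Their median depths were 18968, 20370 and 21853 UMIs. Group 1 also held all 8 stromal barcodes with at least 2 UMIs of the endothelial genes Cdh5, Kdr, Tek, Emcn and Cldn5. Of the 8 genes above the minimum, 5 differed at least 2-fold between the highest and the lowest group (Mmp3, Mmp13, Mmp14, Timp3 and Adamts1), where 18.0% of the 7474 genes with the same minimum did, other genes having been used to form the groups. The same number differed with 30 neighbors, with equal weight per barcode and without the barcodes with endothelial markers. None of these settings left out the group 1 barcode that held 94 Adamts1 UMIs.

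Mmp3 and Timp3 were highest in group 2. Mmp3 stood at 43024 CPM in group 2, 31521 in group 3 and 19787 in group 1, and its median over barcodes was 442, 316 and 119 UMIs per 10000. Timp3 stood at 1442 (1383 to 1503) in group 2 against 445 in group 1 and 420 in group 3, with a UMI in 64 of 66, 59 of 92 and 38 of 52 barcodes. For both genes the group 2 barcodes lay high as a set and not through 1 barcode, since the top barcode held 4.75% of the Mmp3 UMIs and 6.94% of the Timp3 UMIs of the group.

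Mmp13, Mmp14 and Adamts1 were lowest in group 2. Mmp13 stood at 719 CPM (686 to 754) in group 1, 74.8 in group 3 and 15.3 in group 2. In group 1 it had a UMI in 26 of 92 barcodes, and 1 barcode held 99 of the 112 UMIs of group 3. Group 1 held 92.7% of the stromal Mmp13 UMIs and 44.0% of all stromal UMIs. Mmp14 stood at 97.6 in group 3 and 88.4 in group 1, whose intervals overlapped, and at 24.9 (17.7 to 34.0) in group 2. Adamts1 stood at 95.5, 38.9 and 82.9 in groups 1, 2 and 3, and 1 barcode held 94 of the 230 UMIs of group 1. Timp1 (2051, 2246 and 1792) and Timp2 (93.0, 89.9 and 80.2) were nearly level across the groups, and Adamts5 stood at 264, 143 and 250.

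**Figure D2:**
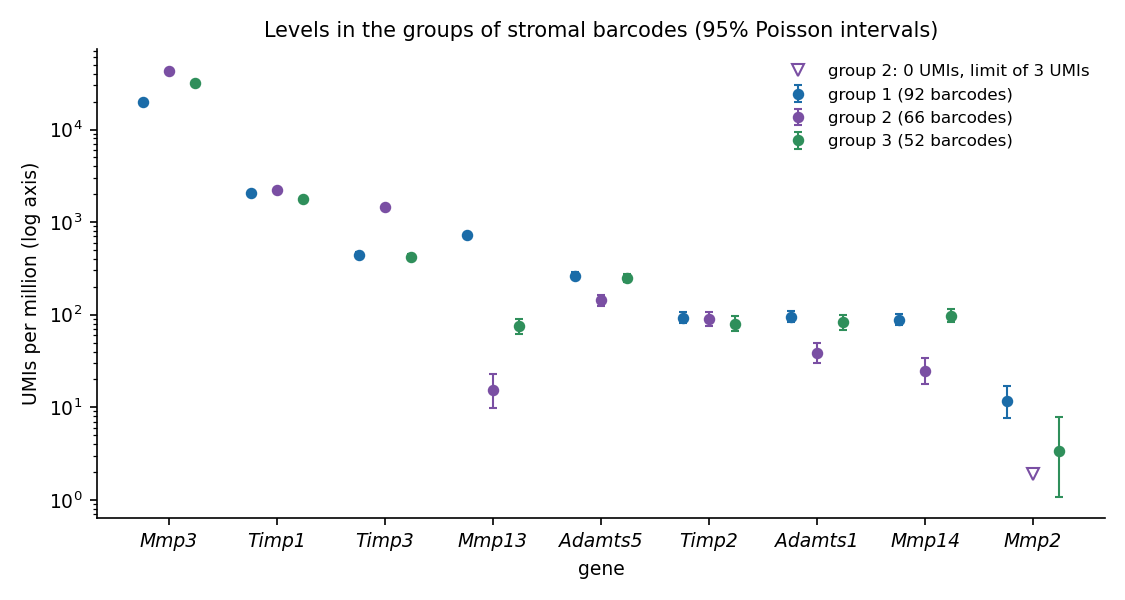
Levels of the 9 genes in the 3 groups of stromal barcodes, in CPM on a log axis with 95% Poisson intervals, and a triangle at 3 UMIs where a group had no UMI. Group 2 has the highest Mmp3 (43024) and Timp3 (1442) and the lowest Mmp13 (15.3), Mmp14 (24.9) and Adamts1 (38.9).

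Assignment to a condition was less complete in the stroma than in the leukocytes, since 112 of 210 stromal barcodes (53.3%) carried too few of either hashtag, against 5.56% of leukocyte barcodes. The comparison of conditions rested on 38 OVX barcodes (1294160 UMIs, median 25198) and 54 sham barcodes (1602909 UMIs, median 23128). Mmp13 was the 1 gene of the 8 above the minimum that was at least 2-fold higher in OVX, where 2.14% of 7577 genes were. None of the 8 was at least 2-fold lower, where 2.07% of genes were. With barcodes assigned by hashtag share (at least 80% of at least 10 hashtag UMIs), again 1 of the 8 was higher and 0 lower, where 2.44% and 2.09% of genes were. The median log2 ratio of OVX over sham was 0.03 over the 8 genes and -0.07 over all 7577. No test was possible with 1 pool per condition.

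Mmp13 stood at 1071 CPM (1015 to 1129) in OVX and 169 (150 to 190) in sham stromal barcodes, a ratio of 6.33 (5.56 to 7.24) that ranked 15th of 7577 genes. The difference lay in how much a few barcodes held and not in how many held a UMI. In OVX 8 of 38 barcodes had a UMI (21.1%, 9.55 to 37.3), with 482, 460, 327, 77, 28, 9, 2 and 1 UMIs, and in sham 11 of 54 did (20.4%, 10.6 to 33.5), with 133 in the highest, 81 in the next and 27 in the third. The 3 highest held 91.6% of the OVX and 88.9% of the sham UMIs, and the median was 0 in both conditions. The highest OVX barcode had 121 and the highest sham barcode 59.5 UMIs per 10000, so that the ranges overlapped. That OVX barcode had no condition by hashtag share. Without the top barcode of each condition the ratio was 8.53, and without the top 3 it was 5.40, from 107 and 19.8 CPM. By hashtag share it was 7.80. It fell to 3.64 with equal weight per barcode and to 3.09 thinned to 5000 UMIs, both below the counting interval.

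All 1386 OVX UMIs of Mmp13 and 258 of 271 sham UMIs were in group 1, which gave 60.2% of the OVX and 40.8% of the sham stromal UMIs. Within group 1 the ratio was 4.51 (3.95 to 5.17), from 1780 CPM in 18 OVX and 395 in 25 sham barcodes. In the Pf4 cluster Mmp13 lay the other way, at 32.6 CPM in 46 OVX barcodes and 136 in 72 sham barcodes, a ratio of 0.239 (0.130 to 0.410), and 0.182 without the top barcode of each condition. Here too it rested on few barcodes, with a UMI in 6 OVX and 11 sham barcodes. In sham 4 barcodes held 48, 38, 17 and 10 of the 126 UMIs, and in OVX 1 barcode held 8 of 15. In the stromal barcodes the 11 neutrophil markers, all with a UMI there, summed to 4385 CPM in OVX and 1884 in sham, the 12 leukocyte markers to 1218 and 661, and the 6 endothelial markers to 165 and 107. The 10 macrophage markers, 5 of them (Adgre1, C1qa, C1qb, C1qc and Fcgr1) at 0 in the stroma, summed to 51.0 and 54.3. At least 2-fold higher in OVX were 4 of 11 neutrophil, 0 of 7 leukocyte, 2 of 5 endothelial and 1 of 2 macrophage markers. These counts are of markers above the minimum, and in the same order 0, 0, 1 and 1 were at least 2-fold lower. Of all genes, 2.14% were higher and 2.07% lower. The leukocytes outside the Pf4 cluster held Mmp13 at 3.91 CPM, and without the barcodes with endothelial markers the ratio was 6.29.

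**Figure D3:**
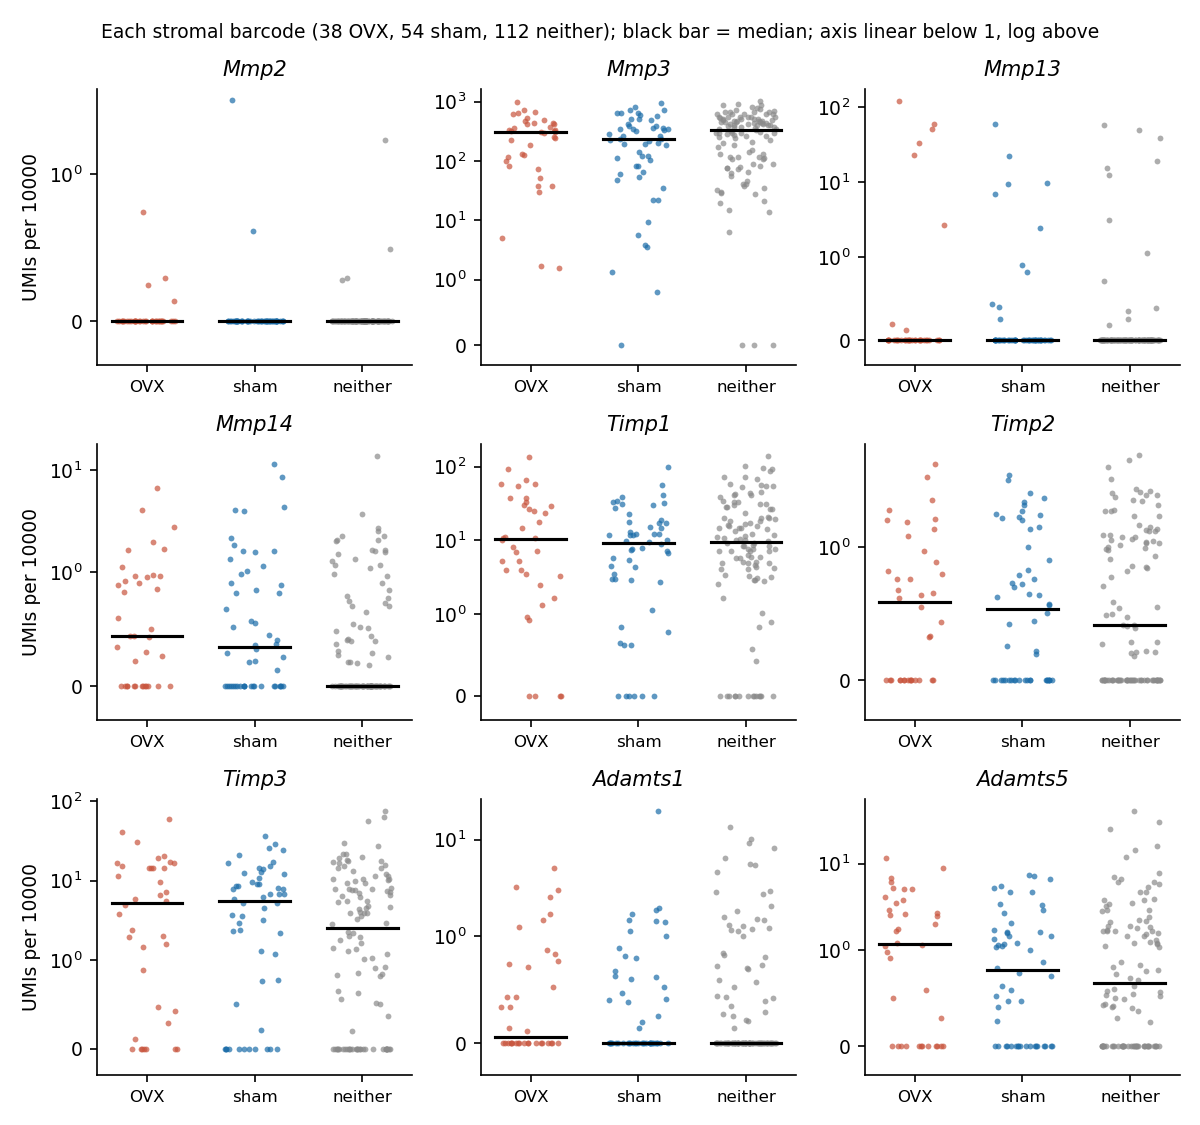
Each point is 1 stromal barcode (38 OVX, 54 sham and 112 with neither hashtag), plotted as UMIs per 10000 on an axis that is linear below 1 and logarithmic above, with the median as a bar. Mmp13 is at 0 in most barcodes of each set, and its few high barcodes reach 121 in OVX and 59.5 in sham, while Mmp3 medians are 307, 230 and 334.

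Mmp3 itself differed little. It stood at 28038 CPM in OVX and 25661 in sham, a ratio of 1.09 (1.08 to 1.11). Over barcodes its lowest, median and highest values were 1.59, 307 and 979 UMIs per 10000 in OVX and 0, 230 and 930 in sham, so that the conditions overlapped over nearly their whole range. In the other 10 settings tried the ratio ran from 1.00 to 1.17.

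Neither Adamts5 nor Adamts1 reached a 2-fold difference. Adamts5 stood at 232 CPM (206 to 260) in OVX and 141 (123 to 161) in sham, a ratio of 1.64, with medians of 1.18 and 0.789 UMIs per 10000 and highest values of 11.5 and 7.45. Assigning barcodes by hashtag share, which gave 28 OVX and 113 sham barcodes, made that ratio 1.07. Adamts1 stood at 48.7 (37.4 to 62.3) in OVX and 97.3 (82.7 to 114) in sham, a ratio of 0.500 that fell just short of 2-fold. A single sham barcode held 94 of the 156 sham UMIs, and without the top barcode of each condition the ratio was 1.05, beside 1.71 for Adamts5. Adamts1 had a UMI in 19 of 38 OVX and 24 of 54 sham barcodes.

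The collagenase and gelatinase pair Mmp14 and Mmp2 shared their top barcode in sham. Mmp14 had a UMI in 25 of 38 OVX and 33 of 54 sham barcodes. Mmp14 stood at 70.3 (56.6 to 86.3) in OVX and 105 (90.1 to 123) in sham, a ratio of 0.667, and 1 sham barcode held 42 of 169 UMIs. That barcode also held 18 of the 19 sham UMIs of Mmp2. Leaving out the top barcode of each condition gave Mmp14 a ratio of 0.772, and thinning to 5000 UMIs gave 1.18. Mmp2 had 6 UMIs in 4 OVX barcodes, and no ratio is given for so few counts.

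Among the inhibitors, Timp1 stood at 2616 CPM (2528 to 2705) in OVX and 1610 (1548 to 1673) in sham, a ratio of 1.63 (1.54 to 1.71). Its medians were 10.4 and 9.15 UMIs per 10000 and its highest values 133 and 97.5. The ratio stayed between 1.35 and 1.83 in the other 10 settings. Timp3 stood at 718 and 750, a ratio of 0.957 (0.878 to 1.04), and Timp2 at 77.3 and 91.7, a ratio of 0.843 (0.647 to 1.09), so that the counting intervals of both included 1. Their direction changed with the setting. Timp3 had a ratio of 1.12 (1.03 to 1.22) by hashtag share, 1.27 with equal weight per barcode and 1.23 thinned to 5000 UMIs, and Timp2 had 1.30 thinned.

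**Figure D4:**
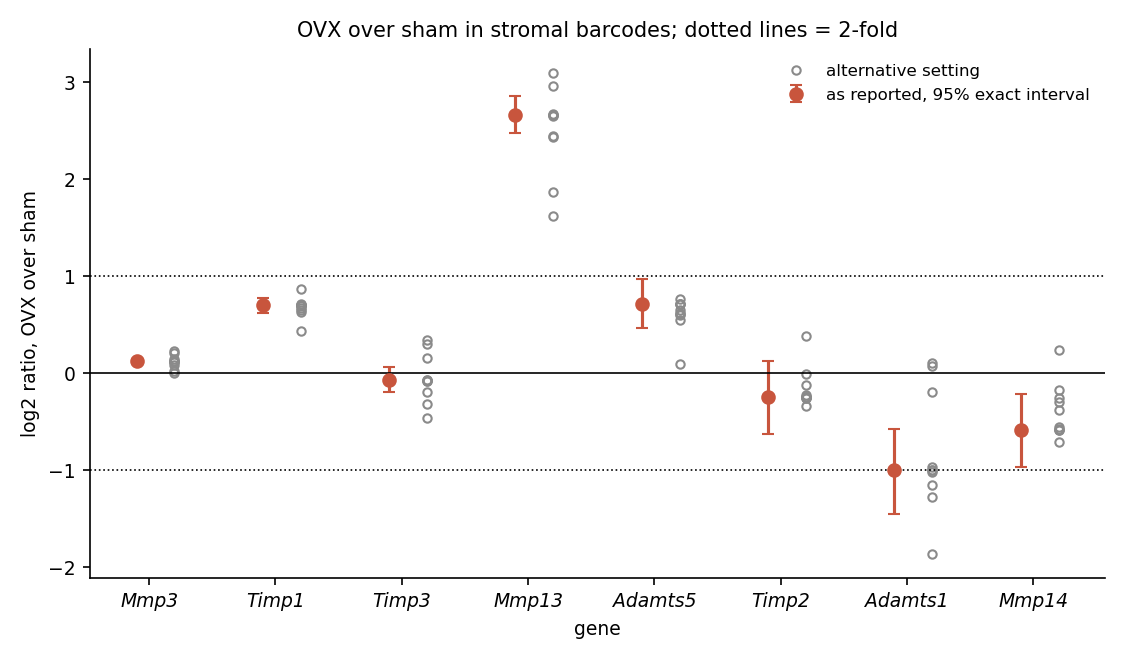
The log2 ratio of OVX over sham in stromal barcodes for the 8 genes above the minimum, as reported (filled, with the exact 95% interval) and under 10 other settings (open), with dotted lines at 2-fold. Mmp13 lies above the 2-fold line in every setting, from 3.09 to 8.53 as ratios, whereas Adamts1 runs from 0.276 to 1.08.

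The level ratios of OVX over sham of Timp1, Timp3 and Mmp3 were not the same in the 3 stromal groups. Timp1 had ratios of 1.09 (1.02 to 1.17) in group 1, 1.68 (1.52 to 1.87) in group 2 and 3.67 (3.28 to 4.11) in group 3, where 7 OVX barcodes stood at 3617 and 13 sham barcodes at 986 CPM. Without the top barcode of each condition these became 1.04, 0.878 and 3.73. Timp3 had ratios of 1.63 (1.40 to 1.91), 0.761 (0.672 to 0.861) and 0.439 (0.308 to 0.613), and 1.37, 0.771 and 0.342 without the top barcodes. Mmp3 had ratios of 1.28 (1.24 to 1.31), 1.04 (1.01 to 1.06) and 1.52 (1.48 to 1.57), and 1.22, 0.965 and 1.61 without the top barcodes. Adamts5 had ratios of 1.60 (1.28 to 2.01), 1.32 (0.810 to 2.16) and 1.20 (0.759 to 1.86), with overlapping intervals. Without the top barcodes those of Adamts5 became 1.87, 1.57 and 0.801. Whether the groups differ in these ratios was not tested, since each rests on 1 pool per condition.

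**Figure D5:**
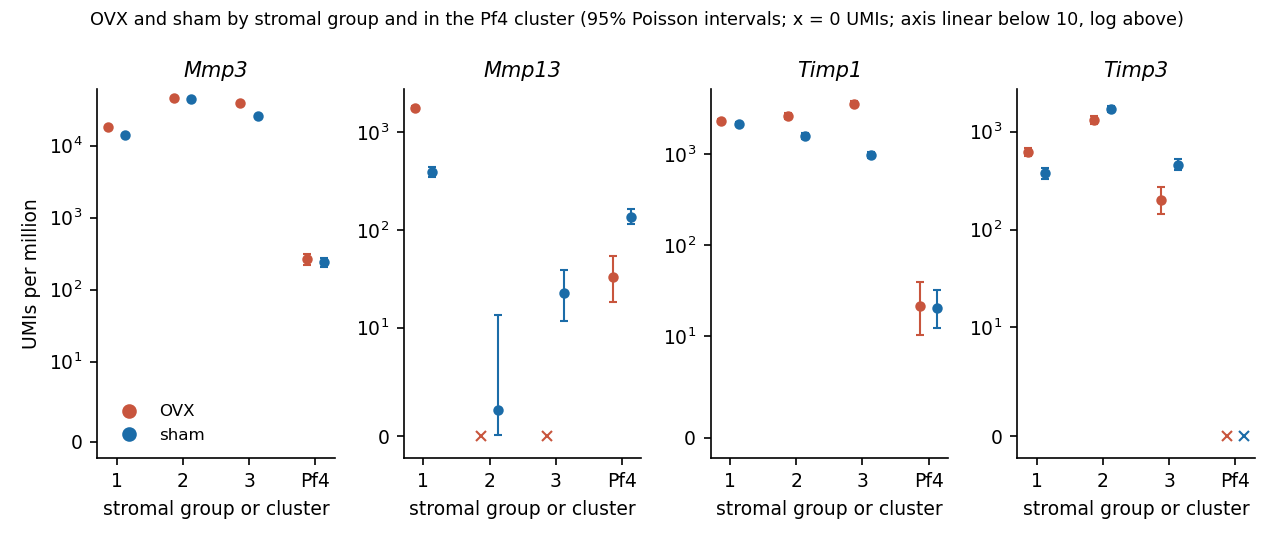
Levels of Mmp3, Mmp13, Timp1 and Timp3 in OVX and sham barcodes of the 3 stromal groups and the Pf4 cluster, in CPM with 95% Poisson intervals, on an axis linear below 10 and logarithmic above, with a cross for 0 UMIs. Mmp13 is higher in OVX in group 1 (1780 against 395) and lower in OVX in the Pf4 cluster (32.6 against 136), and Timp3 lies in opposite directions in groups 1 and 3.

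Protease UMIs outnumbered TIMP UMIs in the stroma through Mmp3. The 6 proteases had 166266 UMIs and the 3 TIMPs 15592, a ratio of 10.7 (10.5 to 10.8), and Mmp3 made up 97.6% of the protease UMIs. Without Mmp3 the ratio was 0.253. It was 8.64 (8.37 to 8.91) in OVX and 10.7 (10.3 to 11.0) in sham with Mmp3, and 0.418 and 0.214 without it, so that the order of the conditions turned. That turn rested on Mmp13, which gave 1386 of the 1846 other protease UMIs in OVX, and 3 barcodes held 482, 460 and 327 of these. Without Mmp3 and Mmp13 the ratio was 0.104 (0.0945 to 0.115) in OVX and 0.145 (0.133 to 0.158) in sham. Of the 570 protease UMIs behind that sham value, 1 barcode held 94 of Adamts1 and 35 of Adamts5. Another held 42 of Mmp14 and 18 of Mmp2. Over all 9 genes the ratio was 11.2 in OVX and 11.7 in sham without the barcodes that were the top of any gene. Mmp3 UMIs exceeded those of the other 8 genes together in 185 of 210 stromal barcodes, and 12 barcodes had more TIMP than protease UMIs. These are counts of RNA and say nothing of enzyme activity.

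Of 36 other Mmp, Adamts and Timp genes in the table, 5 reached a mean of 10 CPM over stroma and leukocytes, of which 2 were at least 2-fold higher in the stroma and 3 lower. Of all genes above that minimum, 46.5% were higher and 19.8% lower in the stroma, shares that apply to each list below. The highest in the stroma were Mmp12 at 161, Mmp9 at 37.3 and Mmp10, stromelysin-2, at 23.0 CPM, and Mmp9 stood at 1625 in the leukocytes. Between conditions 2 of 5 were at least 2-fold higher in OVX stroma, where 2.14% of all genes were higher and 2.07% lower. The 2 were Mmp10 at 37.9 against 11.2 (49 and 18 UMIs) and the neutrophil collagenase Mmp8 at 24.7 against 6.24 (32 and 10 UMIs). Below 10 CPM in sham, Mmp8 met the minimum only through its OVX level. Mmp8 stood at 11.9 CPM over the stroma and 1128 in the leukocytes outside the Pf4 cluster. It is 1 of the 11 neutrophil markers, which summed to 4385 CPM in OVX and 1884 in sham stroma. The source of the Mmp8 UMIs in stromal barcodes was not tested. Among 23 other proteases and inhibitors, 17 reached the minimum, with 9 higher and 5 lower in the stroma. The plasminogen activator inhibitor Serpine2 (1213) and the cysteine protease inhibitor Cst3 (1008) had the highest stromal levels of that list, and 0 of 18 were 2-fold different between OVX and sham. Of 10 genes of activation and clearance, 8 reached the minimum and 5 were higher and 1 lower in the stroma, and the highest stromal levels were those of Sdc4 (896), Cd63 (626), which binds Timp1, and Cd44 (432).

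Of 8 listed cytokine ligands, 5 reached the minimum, with 1 higher and 3 lower in the stroma (46.5% and 19.8% of all genes were). Lif (155), Tgfb1 (63.6) and Il1b (4.20) had the highest stromal levels. Only 2 ligands met the minimum between conditions, of which 0 were 2-fold higher in OVX and 1 lower (2.14% and 2.07% of all genes were). The lower ligand was Lif, at 78.0 in OVX and 239 in sham. Of 11 receptors and signal chains, 10 reached the minimum over stroma and leukocytes, with 3 higher and 4 lower in the stroma. Their highest stromal levels were those of Il6st (158), Osmr (68.7) and Tnfrsf1a (64.3). Between conditions 1 of 10 was at least 2-fold lower in OVX (2.07% of all genes were), the LIF receptor gene Lifr (12 and 31 UMIs). Lifr met the minimum only through its sham level. Among 15 transcription factors, 3 were higher in the stroma and 8 lower, and Junb (529), Runx1 (291) and Cebpb (239) had the highest stromal levels. None of 14 factors differed 2-fold between OVX and sham. The AP-1 gene Fosl1 stood at 153 CPM in the stroma and 8.60 in leukocytes, and at 127 in OVX and 188 in sham stroma. Of 15 substrates, 12 reached the minimum and all 12 were higher in the stroma (46.5% of all genes were), led by Prg4, Dcn (16513) and Fn1 (10383). Col1a1, Col1a2, Col3a1, Dcn and Bgn are also among the stromal markers by which clusters were called stromal. For these genes the direction was set beforehand. Within the stroma 13 substrates were compared, of which 0 were 2-fold higher in OVX and 2 lower (2.14% and 2.07% of all genes were), Col1a1 (3 and 38 UMIs) and Col1a2 (21 and 56 UMIs). Col1a1 met the minimum only through its sham level.

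The genes most like each member over the 210 stromal barcodes were taken by Pearson's r of log counts per 10000, among 7314 genes with a UMI in at least 20% of barcodes. These r values are descriptions over cells of 1 library that share depth. Mmp3 was most like Dcn (r = 0.54, and 0.51 over the 181 barcodes thinned to 5000 UMIs), the nitric oxide synthase gene Nos2 (0.45 and 0.41) and the arginine transporter gene Slc7a2 (0.44 and 0.43). Timp3 was most like Tgm2 (0.54 and 0.46), Syn3 (0.53 and 0.43) and Gpx3 (0.53 and 0.51). Syn3, the gene in which Timp3 is nested on the other strand, had 189 stromal UMIs in 75 barcodes, against 3962 for Timp3. Timp1 was most like Fn1 (0.40 and 0.32), Col2a1 (0.36 and 0.29) and Lox (0.34 and 0.22), and Mmp13 like Ptgs2 (0.38 and 0.28), Sh3rf1 (0.36 and 0.07) and Camk2d (0.33 and 0.27).

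The likenesses of the other genes shrank on thinning as well. Mmp14 was most like Soat1 (0.45 and 0.28), Sod2 and Pdlim4, Timp2 like Zc3h12a (0.36 and 0.25), Prdx4 and Osbpl5, Adamts1 like Sgk1 (0.35 and 0.22), Parp4 and Czib, and Adamts5 like Cited2 (0.38 and 0.20), Sufu and Atp11b. Mmp2, with a UMI in 10 barcodes, was listed beside Tnc (0.49 and 0.33), Antxr2 (0.47 and -0.02) and Il1rl1. Among pairs of the 9 genes r ran from -0.29 (Mmp14 and Timp3, -0.18 thinned) to 0.32 (Mmp2 and Mmp14, 0.05 thinned).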

How the data were processed

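The authors aligned reads of a droplet 3′ library to mm10 with Cell Ranger (6.0.1 per the processing notes, 6.0.0 per the file header) and deposited UMI counts of genes and hashtags per barcode, not normalized. The submitters' processing notes also list featureCounts 1.5.0-p3, without its role. The hashtag reads were not analysed here apart from those counts. Conditions came from HTODemux (Seurat 5.3.0, R 4.3.3, quantile 0.99). Counts were scaled to 10000 per barcode and clustered by Louvain (scanpy 1.11.5) without the 9 genes, and clusters with more stromal than leukocyte marker UMIs were called stromal. Counts were summed per group and given as CPM (per 1000000 gene UMIs), with exact Poisson, binomial or ratio intervals at 95%, and called at 2-fold with a mean of at least 10 CPM. From each other list the 3 genes with the highest stromal level were named, except where a gene is not reported here, and for each of the 9 the 3 with the largest r. Fosl1, Mmp8, Col1a1, Col1a2 and Lifr were named after their values were seen. Scripts were tested on simulated data. No doublet caller was run, and barcodes with both hashtags entered neither condition. Depth ranged from 500 to 141565 UMIs per barcode, and 1 pool per condition allows no test. The genes and lists were chosen with earlier results of these data known, and the settings without endothelial-marker barcodes or the top 3 barcodes, those of the stromal groups, and the protease to TIMP ratio without Mmp3 and Mmp13, were added after seeing the data.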

Additional observations from a re-analysis of the deposited data

Results flagged for a closer look

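The 112 stromal barcodes with too few of either hashtag enter no comparison of conditions, yet 3 genes stood there above the sham stromal level by counting intervals that do not overlap. Mmp3 stood at 32867 CPM against 25661 in sham, Timp1 at 1932 against 1610, and Adamts5 at 286 against 141. By the same criterion Mmp13 (77.2 against 169) and Mmp14 (55.2 against 105) stood below sham, as did Mmp2 (3.32 against 11.9), which is under the minimum of 10 CPM. Of 7466 genes above that minimum, 3.15% stood above and 8.81% below sham. The Adamts5 value rests in part on 1 barcode with 153 of 690 UMIs. By hashtag share 55 of these barcodes would be sham and 0 OVX.

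Mmp13 had ratios of OVX over sham in opposite directions in 2 cell classes, 6.33 in the stromal barcodes and 0.239 in the Pf4 cluster, each resting on a few high barcodes. Timp3 had ratios of 1.63 in stromal group 1, 0.761 in group 2 and 0.439 in group 3. Neither difference was tested, because each condition is 1 pool.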

How the results depend on the processing

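Of the 8 genes above the minimum, the count at least 2-fold higher in the stroma was 7 under 7 alternatives and 5 of the 6 that met a minimum mean of 50 CPM. The count higher in OVX was 1 in each setting tried. The count lower in OVX was 1, Adamts1, after a filter on barcodes (500 or more genes, mitochondrial share up to 10%), by the marker-share gate, thinned to 5000 UMIs, and, as a setting added later, without barcodes with endothelial markers, against 0 as reported. The ratio of protease to TIMP UMIs in all, OVX and sham stromal barcodes was 11.3, 9.04 and 11.1 by the marker-share gate, 12.0, 9.70 and 12.8 with equal weight per barcode, and 11.6, 9.53 and 12.1 thinned to 5000 UMIs. It was 9.35, 7.45 and 10.2 by hashtag share. Leaving out of every sum the barcodes that were the top of any gene in their condition gave 11.7, 11.2 and 11.7. Members kept among the variable genes and 30 neighbors gave the same stromal barcodes. No paired analysis was possible because each condition is 1 pool in 1 library. The depth of 92 assigned stromal barcodes limits Mmp2, Mmp14, Timp2 and Adamts1, whose counts are between 6 and 169 per condition. Causes of these shifts were not tested.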
